A study of Mus musculus with 3 samples.

Results

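Red cell membrane and blood group genes were examined as a set of 8, namely Gypc, Epb42, Slc4a1, Ank1, Kel, Rhag, Rhd and Car1, among the 16742 genes that the tables list by NCBI Gene ID. They were chosen by name, and all 8 were matched to an ID. Earlier results of these data were known when these genes and the lists below were chosen. Shares of all genes given beside them are thus a description and not a test. RNA-seq covered 3 libraries, with 1 library per condition. The control library came from lin- bone marrow cells of wild-type C57BL/6 mice, the cells left once cells that bear markers of mature lineages are removed. The TR1 and TR9 libraries came from GFP+ bone marrow cells of C57BL/6 mice with TBLR1-RARa (TR) leukemia, each named for 1 primary mouse and taken at the third generation of transplantation. TR and GFP were made from 1 retroviral transcript under the viral promoter, so GFP marked transduced cells. Marrow of 3 mice was pooled for each, all labelled as 6 to 8 weeks old. Control and TR cells were thus isolated in different ways, and only the TR cells were transduced, serially transplanted and leukemic. The parts of TR, transduction, transplantation, leukemia and isolation cannot be told apart.

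The membrane of a red cell is held up by a spectrin network that is tied to the lipid bilayer through protein complexes. In the ankyrin complex, the anion exchanger Slc4a1 is bound by ankyrin, the Ank1 product, together with Epb42 and the Rh proteins, while glycophorin C joins the network at the junctional complex. Many of these proteins carry blood group antigens, and loss of several of them causes inherited hemolytic anemia. Most are made late in red cell development, and some are already transcribed in marrow progenitors.

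The libraries held 5129662 to 5571409 expected counts, which RSEM estimates per gene and which need not be whole, and genes absent from a library's table were counted as 0. Expected counts of Rara, a partner of the fusion, were 1168 for TR1 and 359 for TR9 against 58.9 for control, and reads of the fusion and of the mouse gene were not separated. Those of Tbl1xr1, the other partner, were 1186 for TR1 and 980.8 for TR9 against 853.6 for control, with log2 ratios of 0.45 and 0.30 that did not pass the threshold. The progenitor genes Kit and Cd34 had 2115 and 1039 counts in control, and the granulocyte granule genes Mpo and Elane had 31884 and 4272, so the lin- library also held RNA of the granulocyte lineage. For a hand-written list of 8 granulocyte genes, levels were summed in FPKM (fragments per unit of transcript length and of library size). The sums were 4266 for control, 22216 for TR1 and 28185 for TR9. By the rule given below, 8 of them were called higher in TR1 and 7 in TR9, beside 8.09% and 9.37% of all genes. Over 8 progenitor genes, Kit and Cd34 among them, the sums were 259, 77.0 and 77.8 FPKM. Of these, 7 were called lower and 1 higher in TR1, and 5 lower and none higher in TR9. Of all genes, 13% were called lower in TR1 and 10.8% in TR9. Lymphoid RNA was low, with summed levels of 12.0, 3.35 and 5.29 FPKM over 5 B cell genes and 4.98, 2.97 and 3.62 over 6 T cell genes. Of these B cell genes, 4 were at 0 in TR1 and 3 in TR9, where 14642 and 14817 of the 16742 genes had counts. The same B cell gene was called lower in both TR libraries, and 1 was called higher in TR9. These are too few to set against the shares of all genes. The part of any of these cell types in the results was not tested.

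Of the 8 genes, 7 were lower in TR1 and the same 7 were lower in TR9, and none was higher. Gypc did not pass the threshold in either comparison. A gene was called when a Poisson test of the counts had a false discovery rate no larger than 0.001 and the log2 ratio of FPKM was at least 1 in size, the thresholds of the study's methods. Among all genes tested, 13% were called lower and 8.09% higher in TR1, 10.8% lower and 9.37% higher in TR9, and 8.39% of the 16742 genes were called lower in both. By the log2 ratio alone, the same number of the 8 genes, 7, was lower in each TR library, beside 26.4% of all genes in TR1 and 23.1% in TR9, with 17.3% and 19.7% higher. More genes were called lower than higher in each TR library, and with TMM scaling more were called higher, 1694 against 1591 in TR1 and 1717 against 1503 in TR9. The median log2 ratio of the 8 genes was -9.63 in TR1 and -8.11 in TR9, and -7.70 and -7.78 with genes at 0 counts placed at 3 counts, against -0.29 and -0.12 over all genes. Both comparisons share the control library. The test compares the reads of these libraries, no replicate shows the spread between mice, and all intervals are 95% exact intervals that cover counting error only. In these bulk samples, fewer cells of a type and less RNA per cell cannot be told apart.

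**Figure D1:**
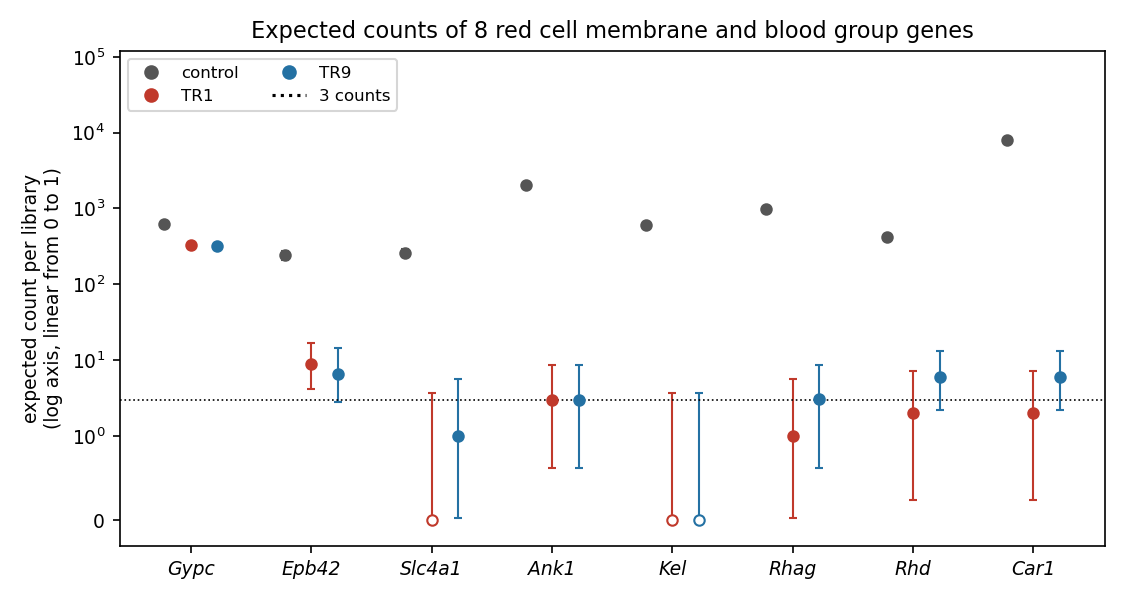
Expected count (log axis, linear from 0 to 1) of each of the 8 genes in the control (grey), TR1 (red) and TR9 (blue) libraries, with 95% exact Poisson intervals. Open circles are 0 counts and the dotted line marks 3 counts. Only Gypc stays above 300 counts in the TR libraries, and the other 7 genes lie under 10.

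In control, levels per transcript length were led by Car1 at 1253 FPKM, the level ranked 36 among all genes of that library. Rhag followed at 77.4 FPKM, and the interval of the ratio of Car1 to Rhag was 15.2 to 17.3. Gypc, Rhd, Ank1 and Kel came next at 52.0, 50.3, 45.5 and 43.8 FPKM, and no neighbours in this order differed beyond counting error. The interval of Gypc, 48.0 to 56.2 FPKM, lay above those of Ank1, 43.5 to 47.5, and Kel, 40.4 to 47.4. Epb42 at 12.6 FPKM and Slc4a1 at 10.2 were lowest, and the interval of their ratio was 1.03 to 1.47. In TR1 and TR9 the order was led by Gypc at 26.8 and 28.1 FPKM, and no neighbours below Gypc that had counts differed beyond counting error. Gypc made up 4.73% of the counts of the 8 genes in control, 95.1% in TR1 and 92.5% in TR9.

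Gypc encodes glycophorin C, the carrier of the Gerbich antigens, which binds protein 4.1 and is known in cells outside the red cell lineage as well. The control library held 627 of its counts, TR1 held 329 and TR9 held 317, so both TR libraries were lower than control and lay close together. The level of Gypc was 1.94-fold lower in TR1 (95% interval 1.69 to 2.22) and 1.85-fold lower in TR9 (1.61 to 2.12). Its log2 ratios, -0.96 and -0.89, fell just short of the threshold of 1. When the FPKM of each library were brought to an equal sum, a scaling chosen after seeing the data, the log2 ratio of Gypc in TR1 was -1.18 and passed.

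Of the ankyrin complex, Ank1, which ties the complex to spectrin, had 2020 expected counts in control and 3 in each TR library. Its level, 0.07 FPKM as rounded in both TR libraries, was about 650-fold lower in TR1 (232 to 3293) and TR9 (213 to 3032). By counts per library total, its log2 ratios were -9.42 in TR1 and -9.30 in TR9. Slc4a1, the chloride and bicarbonate exchanger known as band 3 that carries the Diego antigens, had 259 counts in the control library, against 0 for TR1 and 1 for TR9. Counting 0 as 3 counts, its TR1 level was at least 87.6-fold below control, and its TR9 level was 255-fold lower (43.1 to 9597). Epb42, the transglutaminase-like protein 4.2 that binds Slc4a1, kept the largest remainder among the 7 genes that fell in TR1, with 8.98 counts left in TR1 and 6.66 in TR9 of the 240.9 seen in control. Its level was 27.3-fold lower in TR1 (14.1 to 60.2) and 34.0-fold lower in TR9 (15.4 to 80.9). Its counts were not whole in any library, as RSEM gives for genes that share reads with others.

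Rhag, an ammonium channel of the same complex, is needed to bring Rhd, the Rh blood group protein, to the surface. In control, Rhag had 984.2 expected counts and Rhd had 419. In TR1 they had 1 and 2, and in TR9 3.08 and 6. Rhag was 967-fold lower in TR1 (179 to 39491) and 298-fold lower in TR9 (105 to 1489). Rhd was 209-fold lower in TR1 (58.5 to 1762) and 65.3-fold lower in TR9 (29.7 to 179). Both genes were thus within 6 counts of 0 in the TR libraries, and the width of the intervals reflects this.

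Kel, the Kell blood group protein and a zinc endopeptidase, had 608 expected counts in the control library and was at 0 in TR1 and TR9 alike. The bound set by 3 counts puts it at least 206-fold lower in TR1, and at least 189-fold lower in TR9. Kel was the only one of the 8 genes at 0 in both TR libraries. Car1, the cytosolic carbonic anhydrase of red cells, had 8107 counts in the control library, where TR1 had 2 and TR9 had 6. Its level was 4042-fold lower in TR1 (1128 to 33651) and 1253-fold lower in TR9 (574 to 3409).

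**Figure D2:**
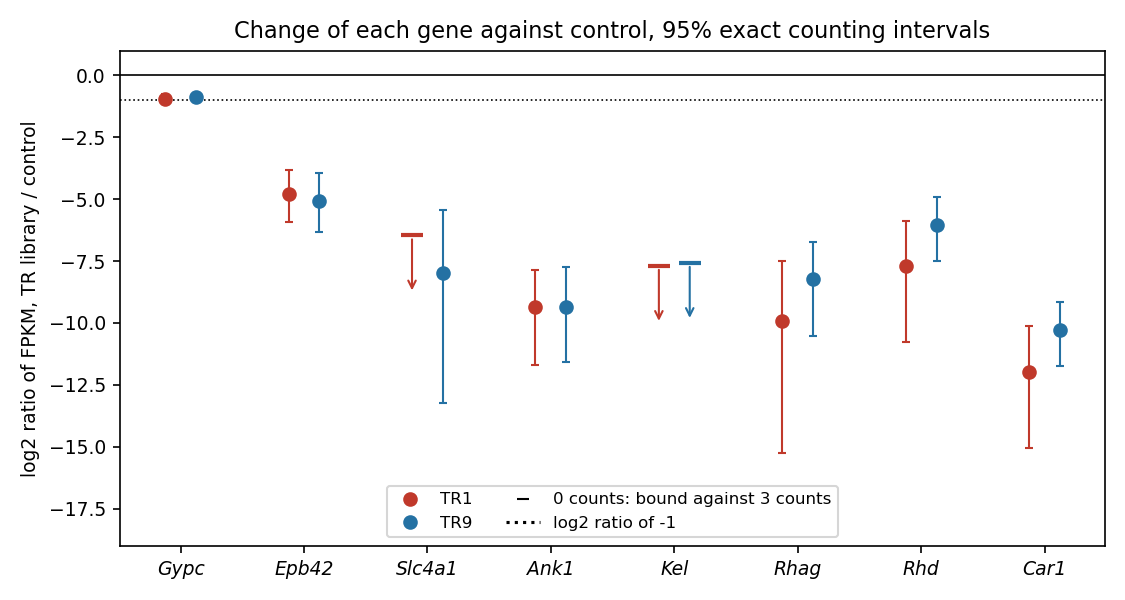
Log2 ratio of FPKM of each gene in TR1 (red) and TR9 (blue) against control, with 95% exact counting intervals. Bars with arrows are genes at 0 counts, drawn at the bound set by 3 counts. Gypc lies at -0.96 and -0.89, Epb42 near -5, and Car1 lowest among the genes with counts in a TR library. Genes at 0 counts have no lower limit, so their order with Car1 is not known.

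Promoters of genes that fell together are shown to display the motifs that red cell factors are known to bind. Promoters from 250 bases before to 50 after the start were matched in the RefSeq table of GRCm38.p6 for 4 of the 8 genes, and Gypc, Slc4a1, Ank1 and Car1 were not matched. They lie at chr6:41704276-41704575 (minus strand) for Kel, chr17:40810899-40811198 (plus strand) for Rhag, chr4:134864286-134864585 (plus strand) for Rhd and chr2:121036828-121037127 (minus strand) for Epb42. Capitals mark the GATA motif, which starts with A or T, goes on with GATA and ends in A or G, and the box CACCC, each on either strand, and no marked letters overlap.
Kel: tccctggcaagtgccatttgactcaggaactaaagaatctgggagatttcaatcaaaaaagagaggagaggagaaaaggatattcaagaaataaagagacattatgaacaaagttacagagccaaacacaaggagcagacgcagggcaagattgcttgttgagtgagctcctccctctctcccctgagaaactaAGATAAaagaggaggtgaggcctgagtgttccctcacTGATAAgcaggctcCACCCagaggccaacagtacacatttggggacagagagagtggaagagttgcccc
Rhag: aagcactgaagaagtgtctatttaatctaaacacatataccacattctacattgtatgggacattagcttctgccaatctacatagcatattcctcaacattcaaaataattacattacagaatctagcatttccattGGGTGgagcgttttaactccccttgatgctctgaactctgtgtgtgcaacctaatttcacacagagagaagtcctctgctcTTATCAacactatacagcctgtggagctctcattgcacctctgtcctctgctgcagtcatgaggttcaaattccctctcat
Rhd: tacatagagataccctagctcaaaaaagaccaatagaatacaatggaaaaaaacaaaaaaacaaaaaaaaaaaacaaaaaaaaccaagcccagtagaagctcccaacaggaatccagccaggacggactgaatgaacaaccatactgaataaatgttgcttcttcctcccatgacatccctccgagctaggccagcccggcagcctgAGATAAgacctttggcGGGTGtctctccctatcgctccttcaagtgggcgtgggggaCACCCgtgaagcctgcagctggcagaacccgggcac
Epb42: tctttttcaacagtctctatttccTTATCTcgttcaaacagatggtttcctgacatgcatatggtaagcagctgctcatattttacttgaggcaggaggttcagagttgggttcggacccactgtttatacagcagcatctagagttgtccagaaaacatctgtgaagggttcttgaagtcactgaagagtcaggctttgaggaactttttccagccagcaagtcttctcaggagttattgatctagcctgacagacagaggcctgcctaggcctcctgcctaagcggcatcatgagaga
All 4 windows held a GATA motif, which 29.8% of the 32851 promoters in the table also held. Counted from the transcript start, Kel held 2 of them, from positions -56 and -19, and Rhd, Rhag and Epb42 held 1 each, from positions -43, -31 and -226. Kel, Rhag and Rhd also held a CACCC box, as did 57.5% of all promoters, and Epb42 held none. These matches are descriptions of the letters, and occupancy by a factor was not measured.

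Whether the 8 genes fell by different amounts was asked for each of their 28 pairs, from the interval of the ratio of their count ratios. In TR1 the interval left out equal change for 14 pairs, and in TR9 also for 14, with no adjustment for the number of pairs. All 7 pairs with Gypc were among them in both libraries. In TR1 all 6 remaining pairs with Epb42 were among them, and in TR9 4 of those 6. Of the other 15 pairs, only that of Rhd with Car1 stood out in TR1, and in TR9 Rhd stood out against Ank1, Kel and Car1. Rhd thus fell less than Car1 in both TR libraries, by a log2 difference of 0.48 to 8.06 in TR1 and 2.36 to 6.18 in TR9. For the remaining pairs a difference was not detectable at this depth.

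TR9 and TR1 were also compared directly. None of the 7 genes with counts was called, whereas 2.31% of all genes tested were called lower and 4.34% higher in TR9. By the log2 ratio alone, Slc4a1, Rhag, Rhd and Car1 were higher in TR9, on 0 to 6 counts each, beside 17% of all genes, and 11.3% of all genes were lower. For Gypc the log2 ratio of TR9 to TR1 was 0.07, with an interval of -0.16 to 0.29. For Car1, with 2 and 6 counts, it was 1.69 (-0.78 to 5.04), and counts this small leave the other members undecided as well.

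For reference among red cell genes, the globin genes Hba-a1, Hba-a2, Hbb-bs and Hbb-b1 together had 2365, 19 and 36 counts, and were 126-fold lower in TR1 (80.7 to 210) and 61.4-fold lower in TR9 (44.2 to 87.9). Counts of all these globin genes were not whole in control, as RSEM gives for near-identical copies that share reads, so the split between the copies is uncertain.

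Erythroid regulators were lower as well. Gata1, the red cell and megakaryocyte factor, went from 999 expected counts to 5 (TR1) and 6 (TR9). Klf1, which binds CACCC boxes, went from 918 to 3 and 5, and Epor, the erythropoietin receptor, from 316 to 0 and 1. Alas2, of heme synthesis, had 68 counts in control and none in TR1 or TR9. In all, 15 of 15 listed genes of an erythroid list were lower in both TR libraries, beside 8.39% of all genes. Their levels summed to 1527 FPKM (control), 57.8 (TR1) and 61.3 (TR9). Most of the sums left in TR1 and TR9 came from Tfrc, the transferrin receptor, at 35.3 and 29.7 FPKM, and from the progenitor factor Tal1 at 14.4 and 16.6, both named after their values were seen. The 6 megakaryocyte genes had summed levels of 903, 2.85 and 1.60 FPKM, with 3 of them at 0 in each TR library. With genes at 0 counts placed at 3 counts, the median log2 ratio of the erythroid list was -6.74 in TR1 and -6.16 in TR9. That of the megakaryocyte genes was -6.46 and -6.38. The part of cell composition in the fall of the 8 genes was not tested.

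Other genes of the red cell membrane skeleton did not all move with the 8. Of 12 skeleton genes, the same 7 were called lower in each TR library, beside 8.39% of all genes called lower in both, and none was called higher in either, beside 8.09% of all genes in TR1 and 9.37% in TR9. Add2, beta adducin, fell from 1402 expected counts in control to 3 in each TR library. Epb41, protein 4.1 itself, and Add1, alpha adducin, fell less, with log2 ratios of -1.51 and -1.85 in TR1 and -1.23 and -1.16 in TR9. Stom, stomatin, had 2055 counts (control), 2678 (TR1) and 3597 (TR9), and Tpm3, a tropomyosin, had 3828, 4574 and 4057, and neither passed the threshold. The median of the 12 log2 ratios was -1.68 in TR1 and -1.19 in TR9.

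Of 30 listed genes that carry or make other blood group antigens, 15 were lower in TR1, 15 in TR9 and 14 in both. The shares of all genes lower were 13%, 10.8% and 8.39%. None of the 30 was higher in either library, beside 8.09% of all genes in TR1 and 9.37% in TR9. Aqp1, the water channel that carries the Colton antigens, fell from 3260 expected counts to 6 in each TR library. Slc14a1, the urea transporter of the Kidd antigens, had 1339 counts (control), 2 (TR1) and 0 (TR9). Ermap, of the Scianna antigens, had 4296.5, 41.5 and 37.1 counts, and its counts were not whole. Cd47 and Bsg, which are made by most cells, did not pass the threshold. The log2 ratios of Cd47 were 0.44 (TR1) and 0.54 (TR9), and those of Bsg were -0.51 and -0.61. The median over the list was -2.94 in TR1 and -1.59 in TR9, and -2.02 and -1.54 with genes at 0 counts placed at 3 counts and genes left out that were at 0 there with 3 or fewer in control.

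Among 10 transporters and channels known in red cells, 7 were lower in TR1, 5 in TR9 and 4 in both, and Slc2a1 alone was higher in both. The shares of all genes were 13% and 10.8% lower in TR1 and TR9, 8.39% lower in both and 5.67% higher in both. With TMM scaling, which sets the bulk of the genes level, 3 rather than 5 were lower in TR9. Kcnn4, the Gardos potassium channel, had 599 expected counts (control), 88 (TR1) and 47 (TR9). Piezo1, the mechanosensitive channel, had log2 ratios of -1.34 and -1.02. Aqp9, a glycerol channel, had 310, 1 and 0 counts. Slc2a1, the glucose transporter, had 42 counts (control), 219 (TR1) and 156 (TR9), a rise of 5.12-fold (95% interval of the log2 ratio 1.88 to 2.87) and 3.97-fold (1.49 to 2.52). Slc16a1, a lactate carrier, had log2 ratios of -0.59 and -1.06, and Atp2b4, a calcium pump, had -2.50 and -0.75.

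**Figure D3:**
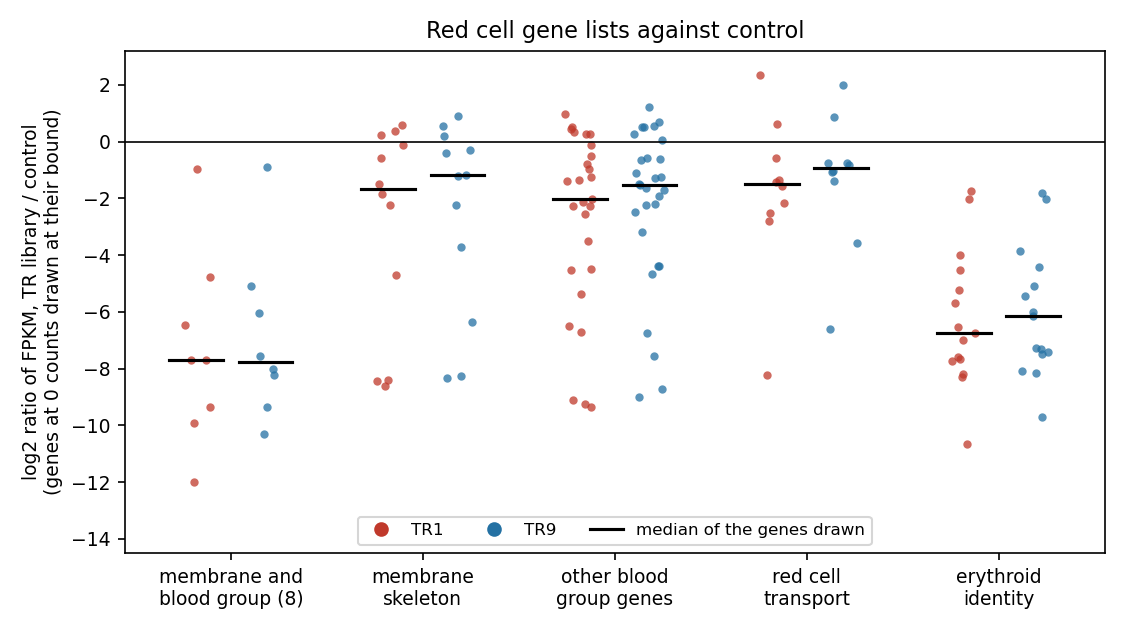
Log2 ratio of FPKM against control of each listed gene in 5 red cell lists, for TR1 (red) and TR9 (blue). Genes at 0 counts in a TR library are drawn at the bound set by 3 counts, genes with 3 or fewer counts in control and 0 in the TR library are left out, and black lines are medians. The 8 membrane and blood group genes have medians of -7.70 and -7.78, and the erythroid identity list has -6.74 and -6.16. The skeleton list has -1.68 and -1.19.

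Car2, the other major carbonic anhydrase of red cells, had 6230 expected counts (control), 7 (TR1) and 12 (TR9), a fall of 901-fold and 485-fold. Of 13 listed carbonic anhydrases other than Car1, Car2 alone was lower in both TR libraries, and Car4 and Car12 were higher in both, beside 8.39% and 5.67% of all genes, so the share lower was near that of all genes. Car4, a membrane-anchored carbonic anhydrase, had 1 count (control), 79 (TR1) and 315 (TR9), with log2 ratios of 6.28 (3.76 to 11.60) and 8.40 (5.91 to 13.71). Car12 had 18, 82 and 71 counts. Of 8 listed relatives of Slc4a1, none was lower, and Slc4a5 and Slc4a8, which carry sodium with bicarbonate, were higher in both, again beside 8.39% and 5.67% of all genes. Slc4a8 rose from 31 counts to 1391 (TR1) and 236 (TR9), and Slc4a5 from 1 to 143 and 176. Slc4a2, the widely expressed anion exchanger, had 212, 240 and 250 counts and did not pass the threshold.

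Among 12 listed genes related to ankyrin, spectrin and protein 4.1, Ank3, Epb41l3 and Epb41l4b were lower in both TR libraries and none was higher in both. Over all genes, 8.39% were lower in both and 5.67% higher in both. These shares also stand beside the 2 families of 6 below, where 1 gene in a direction is too few to set against them. Sptbn1, the beta spectrin of most cells, had 1850 expected counts (control), 3137 (TR1) and 3895 (TR9), with log2 ratios of 0.74 and 1.17, of which the second passed. Sptan1, its alpha partner, had 1029, 1838 and 1766 counts, with log2 ratios of 0.81 and 0.87. Of 6 listed relatives of Epb42 in the transglutaminase family, Tgm2 was lower in both, with 197, 2 and 3 counts. F13a1, the factor XIII transglutaminase subunit, rose from 2118 counts to 11852 (TR1) and 6048 (TR9), by log2 ratios of 2.46 and 1.61. Rhcg, the listed relative of the Rh genes, had 2, 2 and 1 counts. Of 6 listed relatives of Kel, Ece1 was lower in both, with 119, 4.16 and 6.14 counts. Ece2, the relative of Kel with the highest level per length in control, had 44, 73 and 46 counts and did not pass the threshold. Car12, Slc4a5, Ank3, Epb41l3, Epb41l4b, Sptan1, Tgm2 and Ece1 were named after their values were seen.

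**Figure D4:**
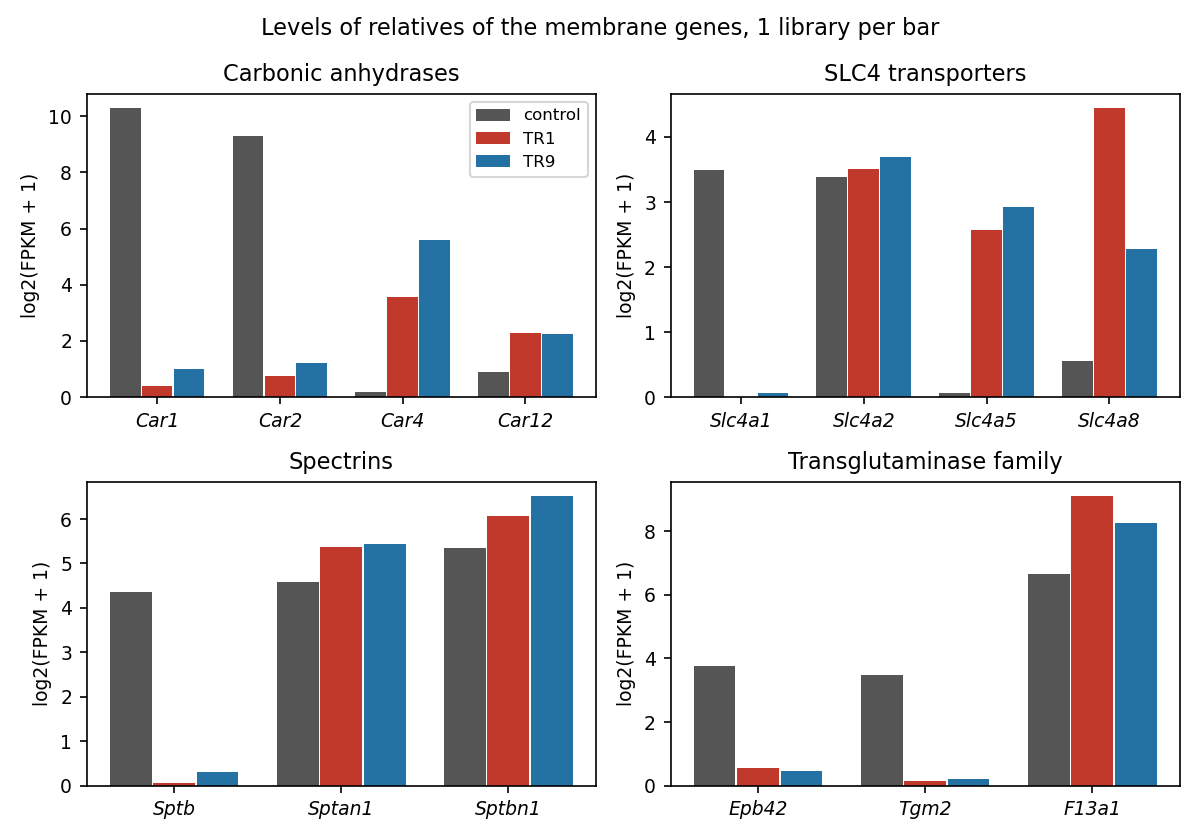
Levels, as log2(FPKM + 1), of members and relatives of 4 families in the control (grey), TR1 (red) and TR9 (blue) libraries, with 1 library per bar and no error bars. Car1, Car2, Slc4a1, Sptb, Epb42 and Tgm2 are far lower in the TR libraries than in control, and Car4, Car12, Slc4a5, Slc4a8 and F13a1 are higher there.

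For each of the 8 genes, the genes closest in level were found by the Euclidean distance of log2(FPKM + 1) over the 3 libraries. Car2 was closest to Car1, at a distance of 1.08, followed by the mast cell and basophil protease Prss34 at 1.37. Closest to Rhag were Zfpm1, a cofactor of Gata1, at 0.27, and Pklr, the red cell pyruvate kinase, at 0.28. Kel was nearest to the platelet gene Gp5 at 0.20 and to Tspo2 at 0.20, and Epb42 to Pheta2 at 0.18. Ank1 was nearest to Tspan13 at 0.17 and Myl9 at 0.20, and Rhd to Parvb and Gm15915, at 0.26 and 0.27. Gypc was nearest to Rfwd3 at 0.06 and Jpt2 at 0.09, and Slc4a1 to the B cell gene Cd79b at 0.06 and to Cracd at 0.09. With 3 libraries, many genes high in control and near 0 in both TR libraries lie close together, and the nearest genes include some of other cell types.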

How the data were processed

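RNA-seq of 3 libraries was used, 1 per condition. Reads were filtered by the authors, BWA and Bowtie served for mapping and RSEM for gene quantities, and the submitters' processing notes name mm9. The authors deposited expected counts, which were rounded here for tests, and FPKM, scaled by the authors for transcript length and library total. IDs were matched to symbols of the RefSeq table of GRCm38.p6, whose build differs, for 16698 of 16742 genes, and 146 of the 160 symbols in 15 further lists were listed. Counts of 2 libraries were set against each other by an exact Poisson test, conditional on their sum, and adjusted after Benjamini and Hochberg over all genes listed in either (scipy 1.17.1). FPKM under 0.01 were set to 0.01 for ratios, and folds against 0 counts were computed against 3 counts, and genes at 1 to 3 counts, planned to get such a bound, were given a ratio and its interval. The floor of 3 counts was 0.538 to 0.585 ppm of a library's counts. Alternatives were TMM scaling (edgeR 4.0.16), the median of ratios (DESeq2 1.42.0), a pseudocount of 1 FPKM, a minimum of 10 counts, counts per total, the exact test of edgeR at an assumed biological variation (BCV) of 0.2 or 0.4 at a false discovery rate of 0.05, other thresholds and, added later, FPKM rescaled to equal sums.

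The members and lists were chosen with earlier results of these data known. Named genes were the 8 members, the highest and the most changed genes of each list by a written rule, erythroid and marker genes, and exceptions stated in the text; some genes that the rule names are not reported here.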

Additional observations from a re-analysis of the deposited data

Results flagged for a closer look

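Differences between TR9 and TR1 that passed the same test were found for 6 of the genes named in the text, none of them among the 8 membrane and blood group genes. Among red cell genes and their relatives, Atp2b4 and Car4 were higher in TR9, by log2 ratios of 1.75 and 2.12, and Slc4a8 was lower, by -2.44. Kit was higher in TR9 by 1.10 and Mpo was lower by -1.11. Rara, for which reads of the fusion and of the mouse gene were not separated, was lower in TR9 by -1.59. Each compares 2 libraries, and no replicate shows the spread between mice.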

How the results depend on the processing

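The 7 calls among the 8 genes kept their direction and their call in TR1 and in TR9 under all alternatives run, and of 88 values of single genes against control in each library, 87 kept their side of the threshold in TR1 and 88 in TR9. The log2 ratio of Gypc ranged from -1.18 to -0.71 in TR1 and from -0.997 to -0.782 in TR9. The sizes of the called falls depended more on how values near 0 were treated. In TR1, Slc4a1 ranged from -12.20 to -3.49, Kel from -13.44 to -5.49, Ank1 from -9.57 to -5.44 and Epb42 from -5.00 to -3.22. Between TR9 and TR1, 4 members passed a log2 ratio of 1 alone, with no count test, and 0 passed otherwise. TMM scaling moved the median of all genes by 0.25 in TR1 and 0.11 in TR9, and rescaling FPKM to equal sums moved it by -0.23 and -0.11.

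With TMM or the median of ratios, 1 blood group gene was higher in TR1 rather than 0, and with TMM 1 skeleton gene was higher in TR9. With either scaling, and with edgeR's exact test at a variation of 0.2, 3 transport genes were lower in TR9. With edgeR's exact test at a variation of 0.4, 4 skeleton genes, 9 blood group genes and 2 transport genes were lower in TR1, 4, 8 and 2 in TR9, and 0 transport genes were higher in either. With a log2 ratio of at least 2, 4 transport genes were lower in TR1, 2 were lower in TR9 and 0 were higher in TR9. With a log2 ratio of 1 alone, 1 blood group gene was higher in TR9. Over all genes, 2120 were lower and 1318 higher in TR1, and 1766 and 1527 in TR9. With TMM scaling they were 1591 and 1694 in TR1 and 1503 and 1717 in TR9, with the median of ratios 1613 and 1676, and 1521 and 1692, and with FPKM brought to equal sums 2918 and 1062, and 2064 and 1370. The TR1 and TR9 counts were 770, 430, 627 and 422 with edgeR's exact test at 0.4, 1133, 685, 928 and 738 with a log2 ratio of 2, and 4306, 2809, 3767 and 3210 with a log2 ratio of 1 alone. The cause was not tested. Between TR9 and TR1, 363 genes were lower and 681 higher (453 and 537 with the median of ratios), 402 were higher at a variation of 0.2, and 13 lower and 58 higher at 0.4. With a log2 ratio of 2 there were 135 and 283, and with a log2 ratio of 1 alone 1772 and 2669. No paired analysis was possible because each condition has 1 library, and for the same reason no replicate could be left out. Ratios against 0 to 6 counts are limited by depth.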
